A study of Mus musculus with 20 samples.

Results

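The tumour necrosis factor (TNF) superfamily was described in RNA-seq libraries of mouse temporomandibular joint (TMJ) condylar heads, the rounded end of the lower jaw, collected with some of the subchondral bone. Members were chosen by gene symbol as the numbered *Tnfsf* ligands and *Tnfrsf* receptors together with *Tnf*, *Lta*, *Ltb*, *Ltbr*, *Fas*, *Fasl*, *Cd27*, *Cd40*, *Cd40lg*, *Ngfr*, *Eda*, *Edar* and *Eda2r*, while the genes of RANKL, RANK and osteoprotegerin (*Tnfsf11*, *Tnfrsf11a* and *Tnfrsf11b*) were left out. This gave 41 of the 54532 genes in the table, 16 ligands and 25 receptors, of which 7 carry a death domain. All mice were Acan-Cre;*Loxl2* fl/fl, so that tamoxifen should delete *Loxl2*, which encodes an enzyme crosslinking collagen and elastin, in cells that use the aggrecan promoter. The 8 control libraries came from vehicle-treated mice and the 12 libraries labelled knockout from mice given tamoxifen on 5 days and then monthly, with males and females in both groups. The mice were 6 months old at the start, and tissue was taken after 4 months. Tamoxifen and deletion went together in this design, so their effects cannot be told apart. Cells outside the aggrecan lineage should have kept their *Loxl2* gene.

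TNF superfamily ligands are mostly trimers on the cell surface or shed from it, and each binds receptors with cysteine-rich repeats. Some receptors with a death domain recruit TRADD or FADD and can pass the signal to caspases. Many receptors, with or without a death domain, recruit TNF receptor-associated factors (TRAFs) and lead to NF-κB and MAP kinases. TNF itself is known in joints as an inflammatory cytokine that drives matrix-degrading enzymes and the formation of osteoclasts, the cells that resorb bone.

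In the libraries labelled knockout, 8 members were higher and 3 were lower, whereas *Tnf* itself had no more than 15 counts in any library. The higher members included both TNF receptors (*Tnfrsf1a* and *Tnfrsf1b*), the lymphotoxin pair *Ltb* and *Ltbr*, the costimulatory receptors *Cd40* and *Tnfrsf9*, the ligand *Tnfsf8*, and *Tnfrsf26*. The lower members were all receptors: *Tnfrsf18*, *Tnfrsf21* and *Ngfr*. Of the 41 members, 30 passed the filter on low counts and were tested by edgeR's quasi-likelihood test, with p-values adjusted by Benjamini-Hochberg over all 15984 genes tested. The 8 higher members were 26.7% of the 30 tested, beside 12.0% of all genes tested. The 3 lower ones were 10%, beside 11% of all genes. *Tnfsf8*, with at most 9 counts in any control library, passed the filter only through the libraries labelled knockout. *Tnfrsf9*, *Ltb* and *Tnfrsf26*, with control medians of 7, 7.5 and 7 counts, could not have passed on the control libraries alone either. The share of 26.7% therefore includes members that were tested because they were high in the libraries labelled knockout. With no filter, edgeR called 6 members higher and 0 lower, beside 1663 and 1324 of 34192 genes. *Ltb* and *Tnfrsf26* were then no longer called higher. By the Wald test of DESeq2, 9 members were higher and 3 lower, beside backgrounds of 11.7% and 10.8%. The median log2 fold change was 0.25 over the 30 members and -0.02 over all genes. Scaling by library totals alone moved these medians to 0.37 and 0.12 and gave 9 higher and 0 lower members by edgeR, beside 2188 higher and 849 lower genes in all against 1918 and 1755 with TMM, and the 3 lower members kept negative values (-0.23 to -1.25) with adjusted p-values of 0.0912 to 0.121. The ranges of the groups overlapped for each of the 30 tested members, and ranges that did not overlap were found for 0.300% of all genes. The plot of fold changes shows every tested member.

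**Figure D1:**
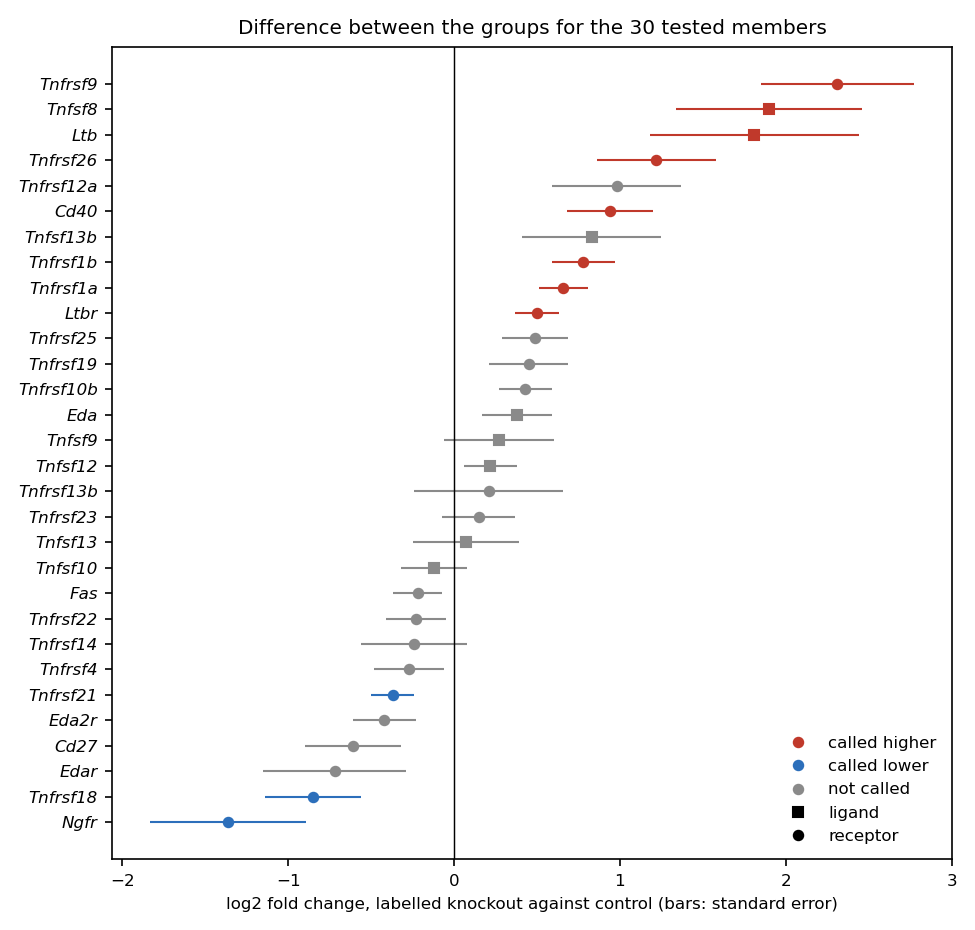
Log2 fold change of the libraries labelled knockout (n = 12) against control (n = 8) for the 30 tested members, with bars of 1 standard error. Squares are ligands and circles are receptors; *Tnfrsf9* lies farthest to the right at 2.31 and *Ngfr* farthest to the left at -1.36.

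Several facts of the whole series bear on these values. Library totals ran from 11153820 to 27045668 counts. *Loxl2* showed no loss in the libraries labelled knockout, where tamoxifen was given: the level ran from 16 to 103 CPM (counts scaled by library size) in control, median 70.3, and 28.8 to 126 CPM in the other group, median 110 (log2 fold change 0.64, SE 0.28, adjusted p = 0.101 by edgeR). The count covers the whole gene, so it does not show whether the floxed part was removed. Among 15 lists of cell type markers, the summed level was higher for osteoclast (10 of 10 genes called higher), macrophage (8 of 10), mast cell (6 of 8) and fibroblast (2 of 6) genes and lower for skeletal muscle (5 of 10 called lower) and adipocyte (0 of 5) genes, with adjusted exact permutation p-values from 0.000953 to 0.0475. Osteoclast genes summed to 184 to 1180 CPM in control and 593 to 6130 CPM in the other group, and macrophage genes to 57.4 to 262 CPM and 160 to 605 CPM. Chondrocyte genes, which define the tissue, summed to 39.5 to 1700 CPM in control and 147 to 3650 CPM in the other group, whereas skeletal muscle genes summed to 34700 CPM or more in each library. In bulk tissue, fewer cells of a type and less RNA per cell cannot be told apart. Control 8 and knockout 12 had the lowest *Loxl2* level and the highest sum of skeletal muscle genes in their groups. Control 8 stood apart in the muscle sum, at 162000 CPM beside 115000 CPM in control 4. Knockout 12, at 86300 CPM, was close to knockout 5 at 82600 CPM.

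Receptors made up the higher end of the family. Per kilobase of exon, *Tnfrsf1a*, the TNF receptor found on most cells, had the highest median in control at 20.5 CPM per kilobase, followed by *Tnfrsf19*, a receptor of mesenchymal and neural progenitors, at 15.3, and *Ltbr*, the lymphotoxin beta receptor, at 13.1. *Tnfrsf21*, also known as death receptor DR6, was at 12.1 and *Tnfrsf12a*, the receptor of the ligand TWEAK, at 10.4. The control ranges of these neighbours overlapped, so their order is not fixed by these libraries. The highest ligand was *Tnfsf12*, which encodes TWEAK, at 4.93 CPM per kilobase, and the death receptor gene *Fas* followed at 4.10. All 11 members below the filter were at or under 0.10 CPM per kilobase in the control median: 8 were ligands and 3 were the lymphocyte receptors *Tnfrsf8*, *Tnfrsf13c* and *Tnfrsf17*. The plot of levels shows this split.

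**Figure D2:**
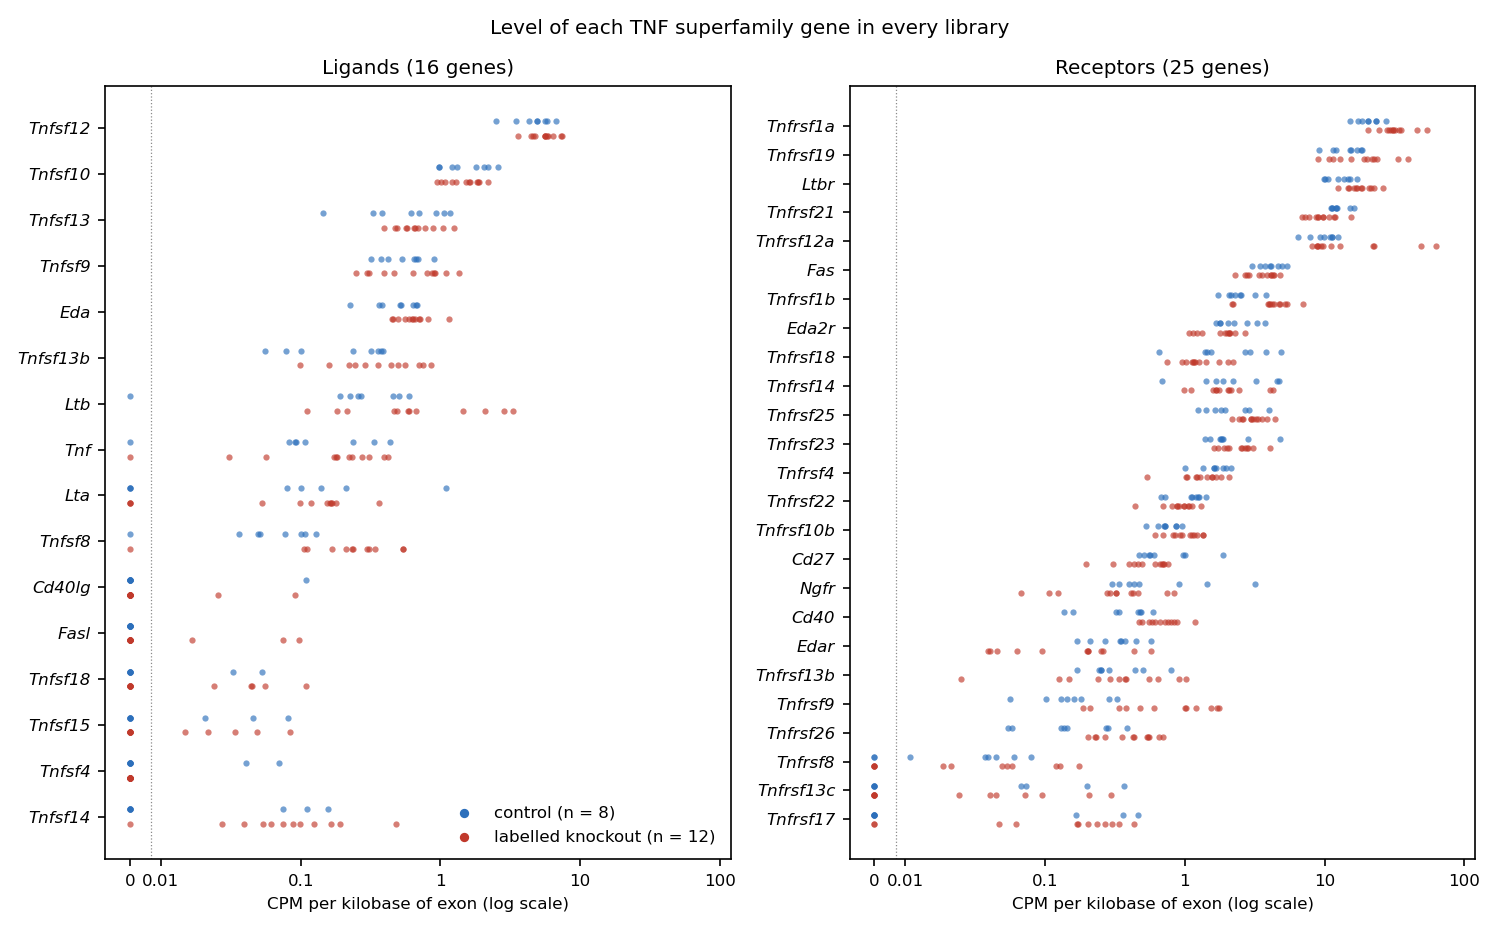
CPM per kilobase of exon on a log axis for the 16 ligands and 25 receptors, each point a library (blue, control; red, labelled knockout), with libraries at 0 counts placed left of the dotted line. Receptors reach 20.5 in the control median and the highest ligand, *Tnfsf12*, reaches 4.93.

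*Tnfrsf1a* was 39.7 to 71.9 CPM in control, median 53.0, and 52.9 to 141 CPM in the libraries labelled knockout, median 80.1. Of the latter, 10 of 12 lay above every control library, knockout 4 and 7 were the highest, and the overlap came from knockout 11 and 12. On the log2 scale the fold change was 0.66 (SE 0.15, adjusted p = 0.00529 by edgeR). The gene lies at chr6:125349362-125362484 on the plus strand (mm10, GENCODE M21), near *Ltbr* at chr6:125306571-125313885 on the minus strand.

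*Ltbr*, which signals for lymphotoxin and LIGHT through the alternative NF-κB route, was 23.5 to 40.4 CPM in control, median 30.9, and 29.2 to 61.2 CPM in the libraries labelled knockout, median 41.5. It was above the control median in 11 of 12 of those libraries, and 6 of the 12 exceeded all control values. As a log2 fold change the difference was 0.50 (SE 0.13, adjusted p = 0.0119 by edgeR). A nearby member of the same gene cluster, *Cd27*, a costimulatory receptor of lymphocytes, was not called, with a log2 fold change of -0.61 (SE 0.29, adjusted p = 0.130 by edgeR), and -0.31 without control 8.

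*Tnfrsf1b*, the other TNF receptor, which lacks a death domain and is found mainly on immune and endothelial cells, was 6.62 to 14.6 CPM in control, median 9.07, and 8.24 to 26.7 CPM in the libraries labelled knockout, median 16.3. Again 10 of 12 lay above all control libraries, and knockout 11 and 12 lay within the control range at 8.51 and 8.24 CPM. The log2 fold change was 0.78 (SE 0.19, adjusted p = 0.00744 by edgeR). Both libraries with low *Tnfrsf1b* also had the lowest sums of macrophage genes in their group, 199 and 160 CPM against 249 to 605 CPM in the other 10.

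*Tnfrsf9*, which encodes the costimulatory receptor 4-1BB, had the largest fold change of the 30 tested members. It was 0.153 to 0.885 CPM in control, median 0.413, and 0.506 to 4.77 CPM in the libraries labelled knockout, median 2.17, with 10 of 12 above all control libraries. The fold change was 4.96 (log2 2.31, SE 0.46, adjusted p = 0.00246 by edgeR). Knockout 1, 2 and 6, at 4.77, 4.59 and 4.19 CPM, were the highest. The same libraries had the highest sums of osteoclast genes, 4080, 6130 and 4590 CPM. Its ligand gene *Tnfsf9* was 0.409 to 1.16 CPM in control and 0.321 to 1.74 CPM in the other group and was not called (log2 fold change 0.27, adjusted p = 0.580 by edgeR).

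*Cd40*, the receptor through which T cells license B cells, macrophages and dendritic cells, was 0.467 to 2.03 CPM in control, median 1.36, and 1.61 to 4.0 CPM in the libraries labelled knockout, median 2.37. All 12 of those libraries were above the control median and 8 were above the highest control. On the log2 scale the fold change was 0.94 (SE 0.26, adjusted p = 0.0140 by edgeR). Its ligand gene *Cd40lg*, made mainly by activated T cells, had 0 counts in 7 of 8 control libraries and in 10 of 12 libraries labelled knockout, with no more than 3 counts in the others.

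*Tnfrsf26*, a mouse receptor gene on chromosome 7 next to the decoy receptor genes *Tnfrsf22* and *Tnfrsf23*, was 0.175 to 1.25 CPM in control, median 0.449, and 0.657 to 2.25 CPM in the libraries labelled knockout, median 1.39. All 12 were above the control median, and knockout 6 and 1 were the highest. As a log2 fold change the difference was 1.22 (SE 0.36, adjusted p = 0.0205 by edgeR). Neither neighbour was called, with log2 fold changes of -0.23 for *Tnfrsf22* and 0.15 for *Tnfrsf23*. The antisense gene *E230032D23Rik* overlaps 107 of the 3218 exon bases of *Tnfrsf26* and 164 of the 3962 of *Tnfrsf23*. Strand use in the counting was not stated, so reads in these shared bases cannot be told apart.

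The ligands called higher were *Tnfsf8* and *Ltb*. *Tnfsf8*, the ligand of the lymphocyte receptor CD30, was 0 to 0.49 CPM in control, median 0.243, and 0 to 2.06 CPM in the libraries labelled knockout, median 0.895. Knockout 3 held no count, knockout 11 and 12 lay within the control range, and the other 9 were above all control libraries. The log2 fold change was 1.90 (SE 0.56, adjusted p = 0.0198 by edgeR), while its receptor gene *Tnfrsf8* reached no more than 16 counts in any library.

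*Ltb*, which anchors lymphotoxin to the cell surface and so forms the ligand of *Ltbr*, was 0 to 0.899 CPM in control, median 0.401, and 0.169 to 4.99 CPM in the libraries labelled knockout, median 0.900. Its spread among the latter was wide: knockout 6, 2, 3 and 9 stood at 4.99, 4.34, 3.19 and 2.20 CPM, whereas the other 8 were between 0.169 and 1.02 CPM. On the log2 scale the fold change was 1.81 (SE 0.63, adjusted p = 0.0430 by edgeR). The call was lost in 10 of the 20 fits that left out 1 library (control 1, 3, 4, 5, 7 or 8, or knockout 2, 3, 6 or 9), where the log2 fold change stayed between 1.52 and 2.01. The partner gene *Lta* was at 0 to 20 counts in control and 0 to 11 counts in the other group.

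**Figure D3:**
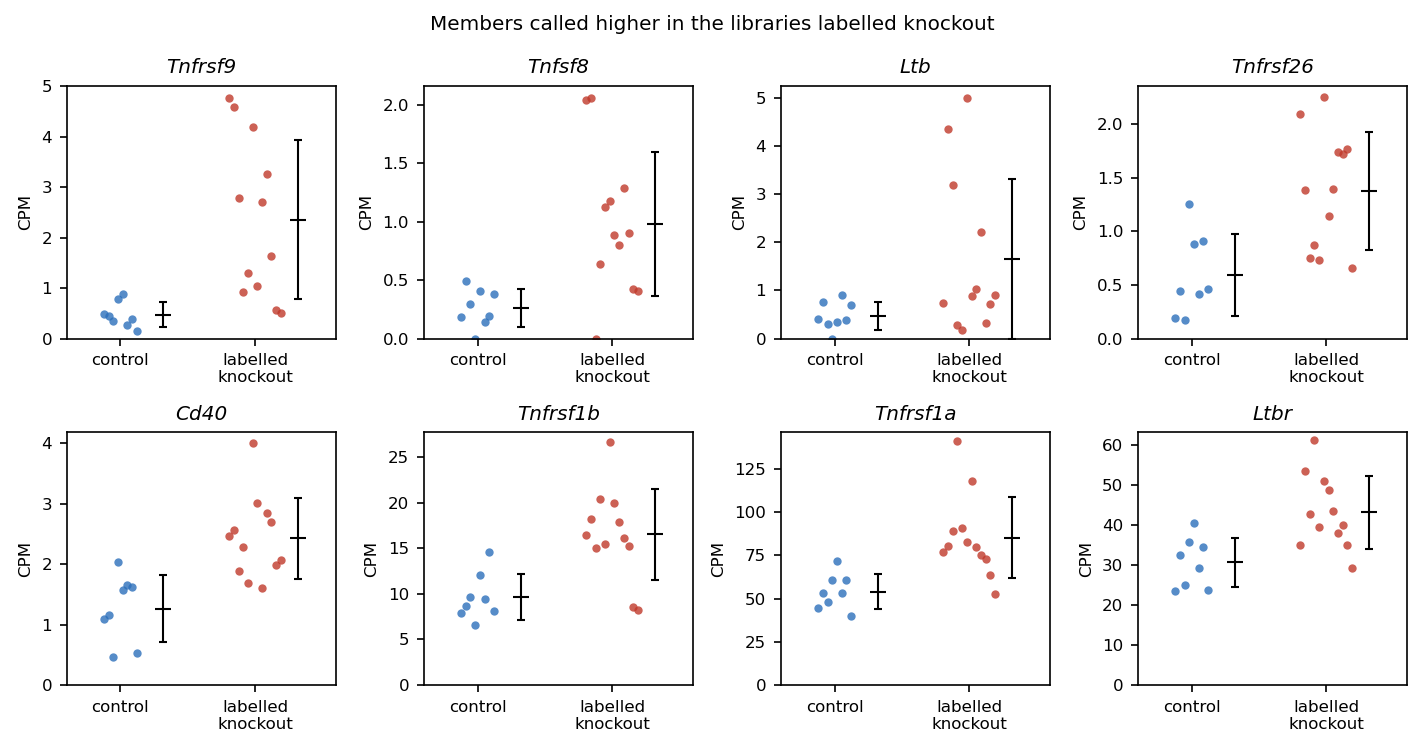
CPM in each library (points, in order of replicate number) of the 8 members called higher, with the mean and SD beside each group (control, n = 8; labelled knockout, n = 12), bars reaching below 0 being clipped. The groups overlap in every panel; for *Tnfrsf1a*, *Tnfrsf1b* and *Tnfrsf9*, 10 of 12 libraries labelled knockout lie above all control libraries.

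*Ltb* and *Tnfrsf9*, a ligand and a receptor among the members called higher, were those of the 8 with a match to the consensus κB site, the DNA element bound by NF-κB, upstream of a RefSeq start site (GRCm38.p6). The site was searched on both strands in the 250 bases before each start. *Cd40* and *Tnfrsf26* had no entry. Of the 41 members, 33 had a promoter in the table, and 3 of their 37 promoters held a match (*Ltb*, *Tnfrsf9* and *Tnfrsf8*), beside 3.9% of all 32851 promoters. A match is a description of the letters and no evidence of binding. The *Ltb* sequence at chr17:35194257-35194438 on the plus strand, which ends where the annotated gene begins, is shown because *Ltb* was called higher and its match, in capitals, lies outside annotated exons, 78 to 87 bases before the start site.
Ltb: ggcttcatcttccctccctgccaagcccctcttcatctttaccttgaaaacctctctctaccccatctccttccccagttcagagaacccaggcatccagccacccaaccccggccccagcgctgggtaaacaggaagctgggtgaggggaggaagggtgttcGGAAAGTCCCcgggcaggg
In *Tnfrsf9* the overlapping matches of both strands, at chr4:150927956-150927966, lie in an exon of the GENCODE annotation, 33 to 43 bases before the downstream of its 2 RefSeq start sites, and only the matching bases are shown.
Tnfrsf9: GGGGATTTCCC

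Across the 8 higher members, the libraries labelled knockout were not alike. Knockout 2 and 6 exceeded the highest control library for 8 of 8 members, and knockout 8 and 9 did so for 7. Knockout 11 did so for 1 member and knockout 12 for 2. The sums of osteoclast genes in knockout 11 and 12, 836 and 989 CPM, lay within the control range of 184 to 1180 CPM. So did that of knockout 5 at 593 CPM. The upper end of that range was control 5 alone, and the other control libraries, at 184 to 507 CPM, lay below all of these. The part of the skeletal muscle, osteoclast and macrophage lists in the members' values was examined by adding each to the fit, as given below. The mast cell, fibroblast and adipocyte lists were not added to a fit.

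*Tnfrsf21*, a death-domain receptor of neurons and lymphocytes, was 45.8 to 66.9 CPM in control, median 49.8, and 28.2 to 63.8 CPM in the libraries labelled knockout, median 38.3. Of the latter, 9 of 12 lay below every control library, and knockout 12 was the highest. As a log2 fold change the difference was -0.37 (SE 0.13, adjusted p = 0.0415 by edgeR).

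*Tnfrsf18*, the costimulatory receptor GITR, was 0.995 to 7.45 CPM in control, median 3.22, and 1.14 to 3.37 CPM in the libraries labelled knockout, median 1.78. None of the 12 was below the lowest control, control 8, whereas 4 of 8 control libraries were above all of the 12. The log2 fold change was -0.85 (SE 0.29, adjusted p = 0.0407 by edgeR). The antisense gene *Gm16008* overlaps 414 of its 1524 exon bases, so part of its reads is uncertain.

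*Ngfr*, the neurotrophin receptor of the family and a gene of nerve and glial cells, was 1.04 to 11 CPM in control, median 1.55, and 0.232 to 2.89 CPM in the libraries labelled knockout, median 1.10. Control 2 and 1, at 11 and 4.99 CPM, set the control mean apart from its median. On the log2 scale the fold change was -1.36 (SE 0.47, adjusted p = 0.0433 by edgeR) and -0.74 without control 2. Schwann cell genes summed to 37.9 CPM in control 2, to 1790 CPM in control 1 and to 1650 CPM in control 5, where *Ngfr* was 3.13 CPM, and to 33.6 to 2790 CPM in the libraries labelled knockout. Their part in the *Ngfr* values was not tested.

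Each call of a lower member was lost in most of the 20 fits that left out 1 library. *Tnfrsf21* was still called in 8 and lost without control 4, 6, 7 or 8 or knockout 1, 2, 3, 4, 7, 8, 10 or 11, with log2 fold changes of -0.45 to -0.30 over the 20. *Tnfrsf18* was still called in 8 and lost without control 1, 3, 4 or 7 or knockout 3, 4, 6, 7, 8, 10, 11 or 12, with values of -0.98 to -0.61. *Ngfr* was still called in 6 and lost without control 1, 2, 5 or 8 or any library labelled knockout other than 2 and 8, with values of -1.54 to -0.74. *Tnfrsf1a*, *Tnfrsf1b*, *Ltbr*, *Cd40*, *Tnfrsf9*, *Tnfrsf26* and *Tnfsf8*, by contrast, were called higher in 20 of 20 such fits. In other fits *Tnfrsf26* lost its call, with no filter (adjusted p = 0.0512 by edgeR) and with a replicate block (0.104). *Ltb* lost its call in the same fits (adjusted p = 0.0707 and 0.0576 by edgeR).

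**Figure D4:**
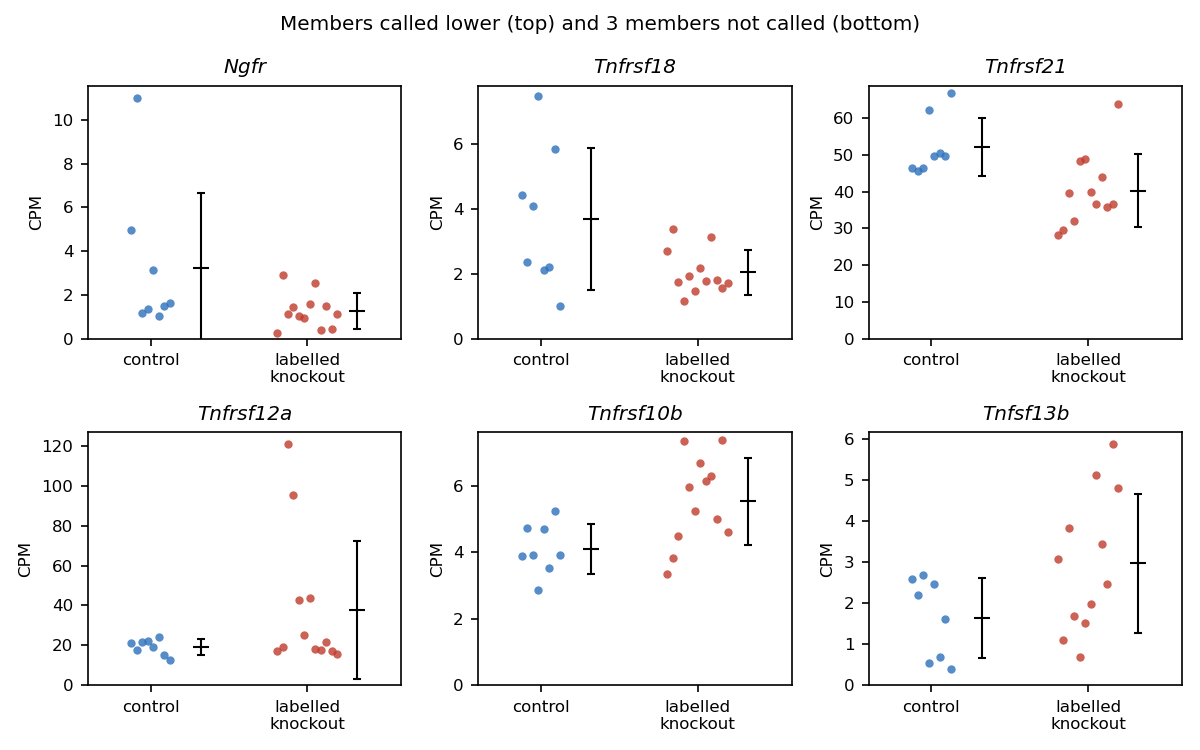
CPM in each library (points, in order of replicate number) of the 3 members called lower and of *Tnfrsf12a*, *Tnfrsf10b* and *Tnfsf13b*, which were not called, with the mean and SD beside each group (control, n = 8; labelled knockout, n = 12), bars reaching below 0 being clipped. *Tnfrsf12a* reaches 121 and 95.4 CPM in knockout 3 and 4, far above the control highest of 24.3 CPM.

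Transcripts of *Tnf* and *Fasl* were scarce. *Tnf* had 0 to 13 counts in control, median 3.5, and 0 to 15 counts in the libraries labelled knockout, median 7. With no filter on low counts its log2 fold change was 0.28 (p = 0.657 and adjusted p = 0.803 by edgeR), so a difference was not detectable at this depth. *Fasl*, the ligand of Fas, had 0 counts in 8 of 8 control libraries and at most 5 counts in the other group.

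*Fas* was 6.27 to 11.1 CPM in control, median 8.45, and 4.69 to 9.96 CPM in the libraries labelled knockout, median 7.70, ranges that mostly coincide. Its log2 fold change was -0.22 (SE 0.15, adjusted p = 0.291 by edgeR). *Tnfsf10*, which encodes the death ligand TRAIL, was 5.11 to 13.6 CPM in control and 4.98 to 11.6 CPM in the other group (log2 fold change -0.12, SE 0.20, adjusted p = 0.706 by edgeR).

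*Tnfrsf10b*, the TRAIL receptor with a death domain, was 2.86 to 5.24 CPM in control, median 3.91, and 3.34 to 7.37 CPM in the libraries labelled knockout, median 5.59. Of the latter, 6 of 12 exceeded the highest control and 10 of 12 the control median. As a log2 fold change the difference was 0.43 (SE 0.16, adjusted p = 0.0596 by edgeR), and the gene passed the threshold without control 7 or knockout 1, 2 or 12. It starts 71638 bases past the end of *Loxl2* on chromosome 14.

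*Tnfrsf12a*, whose product Fn14 is known to be induced in injured tissue, showed uneven values among the libraries labelled knockout. It was 12.5 to 24.3 CPM in control, median 20.2, and 15.7 to 121 CPM in the libraries labelled knockout, median also 20.2. Knockout 3, 4, 7 and 5 stood at 121, 95.4, 43.8 and 42.8 CPM, whereas the other 8 were between 15.7 and 24.9 CPM. The log2 fold change was 0.98 (SE 0.39, adjusted p = 0.0725 by edgeR, 0.0339 by DESeq2), and without knockout 12 it was 1.06 with an adjusted p of 0.0479 by edgeR. Without knockout 3 it was 0.65 (adjusted p = 0.141 by edgeR), and with Y chromosome genes as covariate 0.64 (adjusted p = 0.218 by edgeR). Fibroblast genes summed to 780, 515 and 810 CPM in knockout 4, 5 and 7 and to 290 CPM in knockout 3, beside 103 to 304 CPM in control. Its ligand gene *Tnfsf12* was 3.82 to 10.2 CPM in control and 5.49 to 11.2 CPM in the other group (log2 fold change 0.22, SE 0.16, adjusted p = 0.333 by edgeR), and it shares exon sequence with a readthrough gene.

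The ligand and receptors of B cell survival showed no call. *Tnfsf13b*, which encodes the survival factor BAFF, was 0.383 to 2.69 CPM in control, median 1.91, and 0.675 to 5.88 CPM in the libraries labelled knockout, median 2.76. Knockout 11, 8 and 12 were the highest, at 5.88, 5.12 and 4.80 CPM, unlike the order seen for the members called higher. On the log2 scale the fold change was 0.83 (SE 0.42, adjusted p = 0.151 by edgeR). *Tnfrsf13b*, the receptor TACI, was 0.477 to 2.25 CPM in control and 0.0709 to 2.89 CPM in the other group (log2 fold change 0.21, SE 0.45, adjusted p = 0.776 by edgeR), and *Tnfrsf13c*, the BAFF receptor, had 0 to 11 counts and 0 to 16 counts. B cell genes summed to 2.0 to 47.4 CPM in control and 1.83 to 28.9 CPM in the other group.

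By role, 1 of 7 death-domain receptors was called higher (*Tnfrsf1a*) and 2 were called lower (*Tnfrsf21* and *Ngfr*), with a median log2 fold change of -0.22. Of the 15 other receptors tested, 5 were called higher and 1 lower. Of the 8 ligands tested, 2 were called higher and 0 lower by edgeR, and the same 2 had an unadjusted p under 0.05. DESeq2 also called 0 ligands lower. Of all genes tested, 12.0% were called higher and 11% lower, and differences between the roles were not tested. The remaining death-domain receptors *Tnfrsf25* and *Edar* had log2 fold changes of 0.49 and -0.72 (adjusted p = 0.0725 and 0.232 by edgeR). Beside *Tnfrsf10b*, *Tnfrsf12a*, *Tnfrsf25* and *Cd27*, the ectodysplasin receptor gene *Eda2r* had an unadjusted p under 0.05 without a call, with a log2 fold change of -0.42 (adjusted p = 0.111 by edgeR).

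The other members tested were not called. *Tnfrsf19* was 43.4 to 88.0 CPM in control and 42.2 to 187 CPM in the libraries labelled knockout (log2 fold change 0.45, adjusted p = 0.179 by edgeR). The ectodysplasin gene *Eda* had a log2 fold change of 0.38, the ligand gene *Tnfsf13* 0.07, and the costimulatory receptor genes *Tnfrsf4* and *Tnfrsf14* -0.27 and -0.24. *Tnfsf13* has 1637 exon bases, and its overlaps with the genes *Tnfsfm13* and *Tnfsf13os* summed to 1204 bases, so much of its reads is uncertain. Of the members below the filter, *Tnfsf4*, the ligand of *Tnfrsf4*, had 0 counts in 12 of 12 libraries labelled knockout and at most 2 counts in control. *Tnfsf14*, which encodes LIGHT, had at most 5 counts in control and at most 18 in the other group. *Tnfsf15*, *Tnfsf18* and *Tnfrsf17* never exceeded 10 counts.

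Around the receptors, a list was read of adaptors, kinases, ubiquitin enzymes, caspases and processing proteases, which also held the receptor gene *Relt* and the ligand gene *Cd70*, both outside the symbol rule. Of its 41 tested genes, 7 were called higher (17.1%, beside 12.0% of all genes) and 2 were called lower (4.88%, beside 11%). *Ripk1*, the kinase recruited to TNF receptor 1, was 4.36 to 11.5 CPM in control, median 9.40, and 9.10 to 20.5 CPM in the other group, median 14.7 (log2 fold change 0.75, SE 0.17, adjusted p = 0.00419 by edgeR). For *Ripk1*, 10 of 12 libraries labelled knockout were above all control libraries. Its exons share 752 bases with *Serpinb6a* and *Gm17084*, so part of its reads is uncertain.

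The adaptor gene *Tradd*, which bridges the death domain to RIPK1, had a log2 fold change of 0.54 (SE 0.16, adjusted p = 0.0228 by edgeR), and *Casp8*, the initiator caspase, 0.53 (SE 0.14, adjusted p = 0.0116 by edgeR). *Traf1*, *Traf4* and *Furin*, a protease that matures several ligands, had values of 0.94 (SE 0.30), 0.57 (SE 0.19) and 0.49 (SE 0.11), with adjusted p-values of 0.0291, 0.0342 and 0.00492 by edgeR. The genes called lower were *Cyld*, a deubiquitinase that restrains NF-κB signalling, and *Tab3*, a subunit of the TAK1 kinase complex, with log2 fold changes of -0.35 (SE 0.11) and -0.36 (SE 0.12) and adjusted p-values of 0.0319 and 0.0370 by edgeR. In the 20 fits that left out 1 library, *Tab3* was called in 9 (-0.41 to -0.30, lost without control 1, 2, 3, 6 or 8 or knockout 1, 4, 6, 7, 10 or 11). *Traf4* was called in 13 (0.46 to 0.66, lost without control 6, 7 or 8 or knockout 1, 2, 4 or 10). *Traf1* was called in 15 (0.82 to 1.13, lost without control 4, 7 or 8 or knockout 2 or 6), *Cyld* in 16 (-0.41 to -0.25, lost without control 3, 4 or 8 or knockout 9) and *Tradd* in 19 (0.46 to 0.62, lost without control 8). *Fadd* (0.17), *Traf2* (0.21), *Traf3* (0.26), the NF-κB brake *Tnfaip3* (0.26) and *Adam17* (0.12), which sheds TNF, were not called, with adjusted p-values of 0.123 to 0.470 by edgeR. *Cd70* and *Edaradd* were below the filter.

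Because marker lists differed between the groups, the fit was repeated with the mean log2 level of a list as covariate. With skeletal muscle genes, 2 members were higher (*Tnfrsf1a* and *Tnfrsf9*), 1 was lower (*Ngfr*), and 1046 of 15984 genes were called in all. With osteoclast or with macrophage genes, edgeR called 0 genes of the whole table, and 1265 and 1198 genes had an unadjusted p under 0.05, among them 6 and 2 members. The groups themselves made up 58.9% of the variance of the osteoclast level, 55.9% of the macrophage level and 22.4% of the muscle level, so these fits could separate the group from the list only in part. DESeq2 was not run with these covariates.

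With macrophage genes in the fit, the log2 fold change of *Tnfrsf1b* was 0.06 in place of 0.78, that of *Ltbr* 0.11 in place of 0.50 and that of *Tnfrsf1a* 0.15 in place of 0.66. With osteoclast genes, *Tnfrsf1a* had 0.61 and was no longer called (unadjusted p = 0.0138, adjusted p = 0.589 by edgeR), whereas *Tnfrsf9* had 0.53 in place of 2.31 and *Ltb* -0.39 in place of 1.81. *Ngfr* had -2.17 and -1.88 with osteoclast and macrophage genes (unadjusted p = 0.00601 and 0.0170 by edgeR). T and NK cell genes, which include the usual sources of several ligands, summed to at most 14.2 CPM in any library, and 1 of the 10 passed the filter. Whether a change in cell makeup accounts for the members' values was not tested beyond these fits.

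**Figure D5:**
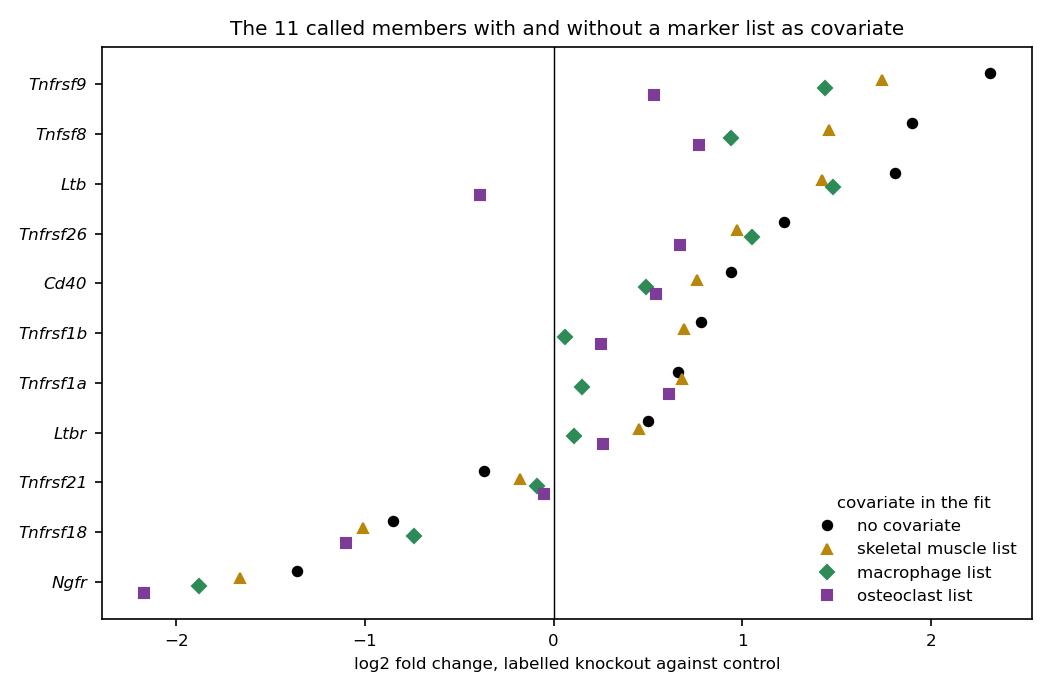
Log2 fold change of the 11 called members in the fit with no covariate (black circles) and with the mean log2 level of skeletal muscle (triangles), macrophage (diamonds) or osteoclast genes (squares) as covariate. *Tnfrsf1b* moves from 0.78 to 0.06 with macrophage genes and *Ltb* from 1.81 to -0.39 with osteoclast genes.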

How the data were processed

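RNA-seq counts of 8 control libraries and 12 libraries labelled knockout were analysed, grouped by sample title. The authors deposited raw read counts per Ensembl gene: company-trimmed paired-end reads were mapped to mm10 and counted with featureCounts. The aligner, strand setting and annotation are not given in the sources used here, so overlapping genes and near-identical copies are uncertain. Of 54532 identifiers, 54495 matched GENCODE M21, and 37 did not. The labels do not tie libraries to animals, so p-values measure the spread between these samples.

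Genes were filtered (filterByExpr) and scaled (TMM), and groups were compared by the two-sided quasi-likelihood F-test of edgeR 4.0.16 (R 4.3.3) on the deposited counts, with Benjamini-Hochberg adjustment over all genes and a threshold of 0.05. The SE is the absolute log2 fold change divided by the square root of F. CPM uses TMM-scaled totals, and CPM per kilobase divides it by the merged exon length. The study used DESeq2; its Wald test (version 1.42.0) was run as an alternative. Marker list sums (log2 of summed CPM + 1) were compared by an exact permutation test over 125970 assignments, adjusted over 15 lists. A count of 3 is taken as the floor and covers counting error only. No library was a copy of another (smallest chi-square per degree of freedom 32.9 over 190 pairs). The procedure was tested on simulated data.

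Full statistics were given for members past the threshold and for 12 genes of the TNF, Fas, TRAIL, TWEAK and BAFF pathways, and values for receptor-proximal genes past the threshold or on a short list; 1 receptor-proximal gene past the threshold is not reported here. Members and lists were chosen with earlier results of these data known. Alternatives were other scalings and filters, robust dispersion, DESeq2, a replicate block, Y chromosome, skeletal muscle or osteoclast genes as covariate, and each library left out; the macrophage covariate and the fit without both control 8 and knockout 12 were added after seeing the data.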

Additional observations from a re-analysis of the deposited data

Results flagged for a closer look

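In the 8 control libraries, 31 genes (the 30 tested members and *Loxl2*) were checked for a library set apart from the others by Dixon's criterion, which flags about 1 in 20 groups by chance, and 3 were flagged. *Tnfrsf23* was 19.1 CPM in control 8, with the nearest other control at 11.3 CPM. *Cd27* was 4.36 CPM in the same library, with the nearest at 2.33 CPM. *Ngfr* was 11 CPM in control 2, with the nearest at 4.99 CPM. Control 8 also had the highest sum of skeletal muscle genes, and the part of this in its values was not tested.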

How the results depend on the processing

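The counts of members (8 higher, 3 lower) and of receptor-proximal genes (7 higher, 2 lower) stayed within 1.5-fold with DESeq2 size factors, upper-quartile factors, a filter at a mean of 1 CPM, robust dispersion, Y chromosome genes as covariate and DESeq2. Lower members fell to 0 when scaled by library totals (which put the median over all genes at 0.12) and to 0 with no filter. Lower receptor-proximal genes fell to 0 and 1. Higher members were 9 with library totals and 6 with no filter. With muscle genes as covariate, 2 members were higher and 1 lower, and 2 and 0 receptor-proximal genes; with osteoclast or macrophage genes all of these counts were 0. Replicate numbers did not pair the libraries (correlation of same-numbered deviations -0.36 to 0.17 over 8 pairs, own number best in 0 of 8). With the replicate block on the 16 libraries with shared numbers, 5 members were higher and 1 lower, and 4 and 0 receptor-proximal genes; without the block these libraries gave 8 and 1, and 8 and 0. Over the omissions of libraries, including both control 8 and knockout 12 at once, 7 to 10 members were higher and 0 to 2 lower, and 4 to 9 receptor-proximal genes were higher and 0 to 2 lower. The count of 4 came without control 8, and 0 lower members without knockout 3, 4, 7, 10 or 11. *Loxl2* was 0.42, 0.28 and 0.01 with muscle, osteoclast and macrophage genes as covariate (adjusted p = 0.419, 0.922 and 0.999 by edgeR). Over the omissions it had values of 0.50 to 0.78 and passed the threshold without knockout 12 (0.74, adjusted p = 0.0313 by edgeR) and without both libraries (0.57, adjusted p = 0.0321 by edgeR).

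Among genes, direction turned with osteoclast genes as covariate for *Ltb* (-0.39), *Tnfrsf19* (-0.43), *Fas* (0.20), *Eda2r* (0.34), *Tnfsf10* (0.18), *Tnfrsf22* (0.02), *Tnfsf13* (-0.45), *Eda* (-0.30), *Tnfrsf13b* (-0.87) and *Tnfaip3* (-0.24). It turned with macrophage genes for *Tnfsf12* (-0.13), *Tnfrsf4* (0.07), *Tnfrsf22* (0.01), *Tnfsf13* (-0.59), *Edar* (0.01), *Tnfrsf13b* (-0.73), *Traf4* (-0.04) and *Traf1* (-0.22), and with muscle genes for *Tnfsf10* (0.09) and *Tnfrsf22* (0.01). With library totals alone *Tnfsf10* was 0.06, and over omitted libraries it ran from -0.20 to 0.02 and *Tnfsf13* from -0.07 to 0.24. Of these, *Ltb*, *Traf4* and *Traf1* were called in the main comparison. The cause was not tested. As a mean of log2 CPM, the fibroblast, adipocyte and muscle lists no longer passed (adjusted exact permutation p = 0.0877, 0.398 and 0.0877), and the other lists kept their side. Members under about 1 CPM rest on few counts, so small differences among them were not detectable at this depth.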
